A study of Homo sapiens with 32 samples.

Results

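The genes described here are the ZNF genes of human chromosome 19, chosen as every protein-coding gene that the GRCh38 RefSeq gene table places on that chromosome under a symbol beginning with ZNF and a digit. The rule gave 250 members among 20037 protein-coding genes, and it used the name and place of a gene and no measured value. A further 267 protein-coding genes with ZNF symbols lie on other chromosomes, and chromosome 19 carries 1201 protein-coding genes without such a symbol. Members ranged from 2469 to 487995 bp in gene body length, with a median of 23254.5 bp, against 24115 bp over all protein-coding genes. Of the members, 45 overlapped the body of another protein-coding gene.

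The ZNF symbol marks zinc finger genes, most of which on this chromosome encode long runs of C2H2 fingers, each of which contacts a few bases of DNA. Many also carry a KRAB domain, which recruits the co-repressor TRIM28 and through it the H3K9 methyltransferase SETDB1, and the best known targets of this pathway are transposable elements. The genes arose by repeated local duplication, so that neighbours often have near-identical sequence, and their 3′ zinc finger exons are known for carrying H3K9me3 together with H3K36me3, the mark that SETD2 writes on transcribed gene bodies. m6A is placed on nascent RNA by the METTL3 and METTL14 methyltransferase, often in long internal exons and near stop codons.

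m6A peaks were mapped by MeRIP-seq, in which RNA fragments are immunoprecipitated (IP) with an antibody against m6A and compared with the Input. The cells were 786-O, a human ccRCC line grown in RPMI1640 with 10% FBS, and RPTEC, renal proximal tubule epithelial cells immortalized with hTERT that stand in for normal kidney and were grown in DMEM/F12 with a growth kit. Neither received a treatment. Each was studied as the WT parent, as 2 knockout clones, SETD2KO-1 and SETD2KO-2, and as the rescued clone SETD2KO-1R, made from SETD2KO-1 with a FLAG-tagged full-length wild-type SETD2 transgene. Each line gave 2 IP libraries, 16 in all. Each knockout or rescued line is a single clone, and lines are isogenic with their WT parent. The knockout clones together are called SETD2KO and the other lines SETD2-expressing, so that each cell type had 4 libraries on each side. Nothing in the sources used here says that the libraries of a line came from separate cultures, so p-values measure the spread between these libraries, which may be technical.

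For every IP library the deposit holds a list of its peaks, 474004 in all, with 25710 to 39670 per list in 786-O and 19249 to 31207 in RPTEC. The sides overlapped in list length in both cell types, and the shortest list was that of RPTEC SETD2KO-2 replicate 2. A gene counts as called in a library when at least 1 peak overlaps its body by at least 1 bp. The study's methods state a minimum number of reads per sample, but the depth of each library is unknown because read counts are not part of the lists. A gene without a peak may be unmethylated, low in RNA or thinly covered, which cannot be told apart here. Peaks carry no strand, so overlapping genes share them, and reads of near-identical paralogs may have been placed on either copy. Of the renal tubule markers, PAX8, PAX2, KRT8, KRT18 and CDH6 were called in all 16 libraries, as were VEGFA and EPAS1. CA9, a ccRCC marker, was called in no library, and so were the leukocyte, endothelial and liver genes PTPRC, CD3E, PECAM1 and ALB. SETD2 itself was called in all 16. It held 6, 4, 4 and 5 peaks in the SETD2KO and 7, 10, 11 and 10 in the SETD2-expressing libraries of RPTEC, without overlap, and 4 to 10 in 786-O, where the sides overlapped, and a peak number does not check a knockout.

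Promoter windows are printed here for 4 of the members whose gene-level differences are described below, to show how far these relatives share sequence. ZNF442 was called in 786-O libraries alone, ZNF229 in RPTEC libraries alone, and ZNF625 and ZNF563 in the SETD2-expressing but not the SETD2KO libraries of RPTEC. Each window is RefSeq sequence of GRCh38.p14, 250 bases before to 50 bases after the start that the table gives, 5′ to 3′ on the minus strand, and covers chr19:12365634-12365933 for ZNF442, chr19:44448529-44448828 for ZNF229, chr19:12156685-12156984 for ZNF625 and chr19:12333584-12333883 for ZNF563. For ZNF442 and ZNF563 that start lies inside the gene body and not at its outer end. Capitals mark CCAAT, the box bound by NF-Y, a motif chosen after the sequences were seen.
ZNF442: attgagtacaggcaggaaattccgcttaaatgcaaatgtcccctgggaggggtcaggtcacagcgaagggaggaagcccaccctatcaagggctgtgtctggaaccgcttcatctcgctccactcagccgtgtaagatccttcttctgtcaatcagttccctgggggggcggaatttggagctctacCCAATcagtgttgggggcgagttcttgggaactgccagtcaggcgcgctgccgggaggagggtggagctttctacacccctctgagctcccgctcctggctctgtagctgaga
ZNF229: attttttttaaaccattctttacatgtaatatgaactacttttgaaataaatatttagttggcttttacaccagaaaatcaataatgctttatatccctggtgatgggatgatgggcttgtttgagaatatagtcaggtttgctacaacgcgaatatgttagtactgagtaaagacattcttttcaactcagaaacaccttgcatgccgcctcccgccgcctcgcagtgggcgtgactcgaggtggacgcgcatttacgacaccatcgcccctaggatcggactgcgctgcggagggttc
ZNF625: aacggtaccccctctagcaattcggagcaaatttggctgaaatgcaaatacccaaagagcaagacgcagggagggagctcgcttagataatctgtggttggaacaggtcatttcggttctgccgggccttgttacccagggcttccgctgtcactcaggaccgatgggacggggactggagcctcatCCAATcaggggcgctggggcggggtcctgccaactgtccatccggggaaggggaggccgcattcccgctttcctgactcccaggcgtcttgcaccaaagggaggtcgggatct
ZNF563: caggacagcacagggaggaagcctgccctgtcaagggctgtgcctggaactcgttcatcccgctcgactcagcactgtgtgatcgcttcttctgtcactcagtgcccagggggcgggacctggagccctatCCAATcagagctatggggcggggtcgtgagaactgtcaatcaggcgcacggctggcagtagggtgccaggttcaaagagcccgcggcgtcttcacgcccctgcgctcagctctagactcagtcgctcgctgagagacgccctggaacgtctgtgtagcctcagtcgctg
CCAAT stood once in the window of ZNF442, of ZNF625 and of ZNF563, at bases 188, 188 and 132, and neither it nor its reverse complement ATTGG was found in that of ZNF229. The ZNF442 and ZNF563 windows shared 3 runs of 12 bases, their longest, agggaggaagcc, tcaagggctgtg and cttcttctgtca, and the longest shared by ZNF625 and ZNF563 was tggggcggggtc, also of 12. ZNF229 shared no run longer than 7 bases with any of the others. Of the 219 members with a window in the table, 118 (53.9%) held CCAAT on either strand, against 36.4% of all protein-coding genes with a window and 42.7% of ZNF genes of other chromosomes, and 45 (20.5%) held it at least 2 times, against 12.5% of all. A match of 5 letters is a description and not a binding site. No library had a peak in any of these 4 windows, and peaks overlapped 6 to 19 of the 219 member windows per 786-O library and 2 to 9 per RPTEC library.

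Most members were called in most libraries. In all, 117 of the 250 (46.8%) were called in every one of the 16 libraries, against 23.1% of all protein-coding genes, and 16 (6.40%) were called in none, against 33.0%. The median member was called in 15 libraries and the median protein-coding gene in 7. ZNF genes of other chromosomes were close to the members, with 47.6% called in all 16 and 10.9% in none, whereas the other protein-coding genes of chromosome 19 stood at 20.0% and 36.2%. By these counts the members stood near the ZNF genes elsewhere and above their chromosome 19 neighbours, and no test was made of the difference.

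**Figure D1:**
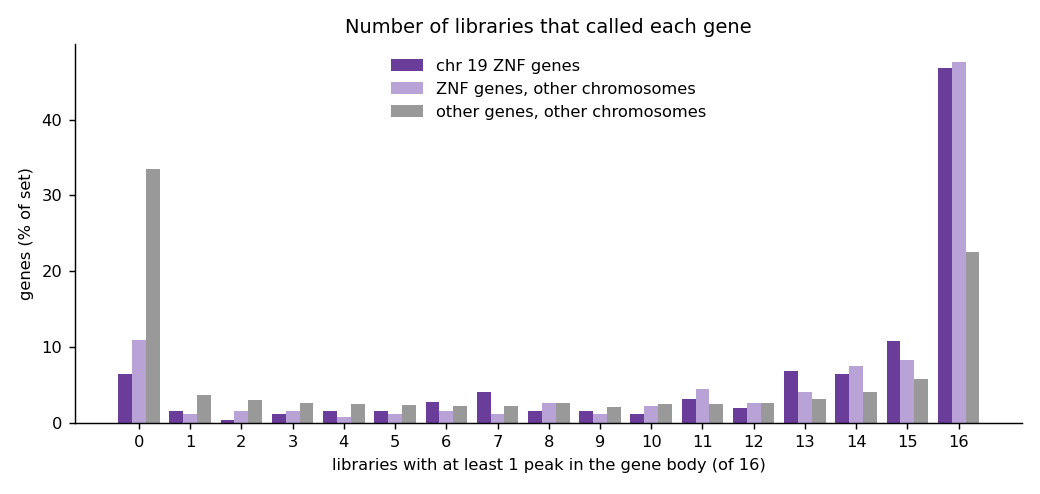
Percent of genes (y axis) called in each number of the 16 libraries (x axis), as bars for the 250 chromosome 19 ZNF genes, ZNF genes of other chromosomes and the other genes of other chromosomes. Both ZNF sets peak at 16 libraries, with 46.8% and 47.6% of their genes, and the members have 6.40% at 0 against 33.5% of the other genes of other chromosomes.

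Calls rose with gene length among the other genes of other chromosomes, and among members they were highest at intermediate length. Among genes up to 15 kb long, members were called in a mean of 71.0% of the libraries and other genes of other chromosomes in 31.5%. From 15 to 25 kb the means were 84.1% and 45.1%, and from 25 to 40 kb 82.2% and 51.9%. Among genes over 40 kb they were 71.4% and 58.6%. Spearman's correlation between body length and the number of libraries called, a description across genes that are not independent, was 0.0688 over the members and 0.312 over the other genes of other chromosomes. ZNF genes of other chromosomes, at 70.8, 76.7, 75.7 and 79.1% in order of length with a correlation of 0.142, were as high in short genes as the members, and other chromosome 19 genes stood at 35.6, 48.6, 58.0 and 57.2% with 0.254. Members that overlapped no other protein-coding gene were called in a mean of 77.3% of libraries and those that overlapped one in 82.8%.

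The 16 members never called were ZNF556, ZNF208, ZNF676, ZNF729, ZNF99, ZNF723, ZNF728, ZNF536, ZNF599, ZNF233, ZNF541, ZNF114, ZNF534, ZNF582, ZNF835 and ZNF135. Of these, 6 lie together in the large pericentromeric group at 19.7 to 24.1 Mb, among them ZNF208, ZNF676 and ZNF99. Others have known roles away from kidney epithelium, such as ZNF541 in germ cells and ZNF536 in neurons. The level of their RNA was not analysed here.

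At the other end, ZNF83 carried the most peaks, with 16 to 21 per 786-O library and 11 to 19 per RPTEC library and a mean of 16.9. Merged over libraries these formed 21 regions, 9 of which were called in all 16 libraries. Its body, chr19:52612377-52690496, overlaps LOC122539214. ZNF69 followed with a mean of 9.69 peaks, from 6 to 14, but its body holds the gene ZNF700 and overlaps ZNF763. ZNF780B averaged 7.44, ZNF611 7.19, ZNF600 5.94 with a body shared with ZNF28, ZNF544 5.88, ZNF91 5.75, the readthrough gene ZNF765-ZNF761 5.56, ZNF808 5.06 and ZNF160 4.69. ZNF91 is known for silencing SVA elements and ZNF808 for its part in pancreas development. The steadiest of these was ZNF160, with 4 or 5 peaks in every library, and the widest relative range was that of ZNF544, from 1 to 11.

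Peak scores put the median member peak below the middle of the list in all libraries but 1, 786-O SETD2KO-1R replicate 2. The score has no stated scale, so each peak was ranked within its own list, where 100 is the highest percentile. The median member peak lay between the 37.7 and 51.7 percentile over the 16 libraries, with a median of 47.3, against 50.3 to 53.0 for other genes of other chromosomes, 54.8 to 61.8 for other chromosome 19 genes and 46.3 to 54.1 for ZNF genes elsewhere. Single members were much higher. The best peak of ZNF611 averaged the 95.7 percentile and never fell below 87.5, followed by ZNF841 at 95.3, ZNF83 at 95.1, ZNF320 at 91.6 and ZNF146, which encodes a protein made almost wholly of zinc fingers, at 91.5. The strongest ZNF841 region, chr19:52094385-52095354, and the strongest ZNF611 region, chr19:52733443-52734567, were called in all 16 libraries and lay near the 5′ ends of their genes, 36380 and 31192 bp from the 3′ ends. Member peaks were long, with a median of 415 to 570 bp by library against 364 to 431 bp for other genes of other chromosomes.

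Unlike the top regions of ZNF841 and ZNF611, most member peaks lay towards the 3′ end, where the zinc finger exon of these genes is found. Over the 219 members with a strand in the table, the last 30% of the gene body held 53.5 to 66.8% of peaks by library, with a median of 58.8%, against 38.3 to 46.2% for other genes of other chromosomes, so that the ranges over the 16 libraries did not overlap. The last 10% alone held 22.7 to 28.8% of member peaks and 17.5 to 24.0% of peaks of the other genes. In the last 30%, ZNF genes elsewhere had 40.7 to 53.0% and other chromosome 19 genes 39.5 to 48.5%, both below every value of the members. The first 10% of the body held 4.10 to 10.1% of member peaks against 9.64 to 15.8%. In distance, the median member peak was 3927 to 5480 bp from the 3′ end, against 15932 to 20448 bp for other genes of other chromosomes and 6184 to 8376 bp for other chromosome 19 genes. SETD2KO and SETD2-expressing libraries overlapped in these measures in both cell types. The gene table gives no exons, so the exon of a peak was not assigned.

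**Figure D2:**
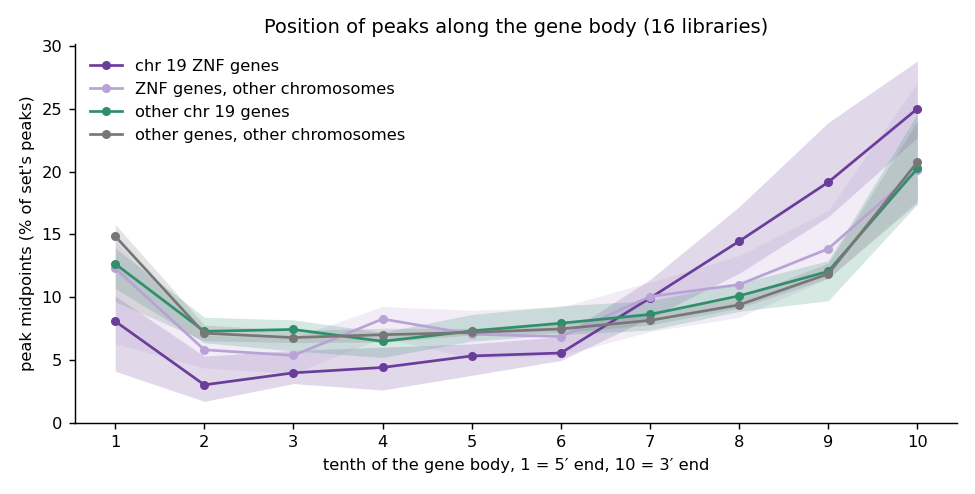
Percent of peak midpoints (y axis) in 10 equal parts of the gene body from the 5′ to the 3′ end (x axis) for members and 3 other gene sets, with lines at the median over 16 libraries and bands from the lowest to the highest. Member peaks gather in the last 30% of the body, with a median of 58.8% against 41.8% for other genes of other chromosomes.

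The comparison of 786-O with RPTEC asked which ZNF genes had m6A calls in a cancer line and not in immortalized tubule cells. ZNF442 had calls in 786-O alone and ZNF229 in RPTEC alone, and these were the 2 members that passed Fisher's exact test of calls, 1 in each direction. Across all protein-coding genes 0.284% were called more often in 786-O by this test and 0.464% more often in RPTEC, against 0.400% of members in each, so the members' share is near the background. Cell type cannot be told apart from any other difference between the sets of lines.

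ZNF442 held 2 and 2 peaks in the 786-O WT libraries, 1 and 1 in SETD2KO-1, 1 and 2 in SETD2KO-2, 3 and 1 in SETD2KO-1R, and 0 in every RPTEC library. The groups did not overlap, and the adjusted p was 0.0208 by Fisher's exact test of calls and 0.0124 by the exact permutation test of peak number, each two-sided with Benjamini-Hochberg adjustment over 20037 genes. Its peaks formed 1 region, chr19:12349644-12351566, 4661 bp from the 3′ end. ZNF442 overlaps ZNF563 by its 3′ end, and this region lies outside the ZNF563 body, chr19:12317477-12347390. ZNF229 was the mirror image. It held 0 peaks in every 786-O library and 1 and 2 in RPTEC WT, 2 and 1 in SETD2KO-1, 1 and 3 in SETD2KO-2, and 2 and 1 in SETD2KO-1R, with the same adjusted p of 0.0208 and 0.0124 by the exact tests. The region chr19:44429666-44430694, 3926 bp from its 3′ end, was called in all 8 RPTEC libraries, and 3 smaller regions in 1 to 3 of them.

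Counted by peak number instead of calls, 4 members (1.60%) had more peaks in 786-O and 3 (1.20%) more in RPTEC at an adjusted p under 0.05, against 1.96% and 1.19% of all protein-coding genes. Beside ZNF442, the first group was ZNF559-ZNF177, ZNF844 and ZNF331. ZNF844 held 4, 4, 2, 3, 4, 4, 3 and 4 peaks in the 786-O libraries, in the order WT, both knockout clones and the rescued clone, and 1, 2, 0, 0, 0, 0, 0 and 3 in RPTEC. The means were 3.50 ± 0.756 and 0.750 ± 1.16 (SD, n = 8 libraries each, adjusted exact permutation p = 0.0471), and the ranges overlapped at 2 to 3. In RPTEC its calls lay in the SETD2-expressing lines, in both WT libraries and 1 of SETD2KO-1R. ZNF331, an imprinted gene, held 3.75 ± 0.707 and 2.12 ± 0.354 peaks (SD, n = 8 libraries each, adjusted exact permutation p = 0.0328), with 3 to 5 in 786-O and 2 in every RPTEC library but 1 with 3. The readthrough gene ZNF559-ZNF177, whose peaks are also those of ZNF559 and ZNF177, held 4.25 ± 1.16 and 1.75 ± 0.707 (adjusted exact permutation p = 0.0418, n = 8 libraries each).

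Toward RPTEC, ZNF234 and ZNF793 joined ZNF229. ZNF234 held 1, 2, 0, 0, 0, 1, 0 and 0 peaks in 786-O and exactly 2 in each RPTEC library, so that the groups met only at 2 (adjusted exact permutation p = 0.0475, n = 8 libraries each). In ZNF793 the counts were 0 throughout 786-O and 1, 1, 1, 1, 1, 0, 1 and 3 in RPTEC (adjusted exact permutation p = 0.0475, n = 8 libraries each). Its calls alone, in 7 of 8 RPTEC libraries, did not pass Fisher's exact test (adjusted p = 0.0944). Without adjustment, 22 members (8.80%) had more peaks in 786-O and 6 (2.40%) more in RPTEC at an exact permutation p under 0.05, against 8.85% and 3.25% of all genes, so neither share exceeded the background. These calls depend on the setting. With lines in place of libraries as units, 4 against 4, no member can pass, and with the same number of peaks from each list the adjusted exact p of ZNF442 and ZNF229 was 0.116 by Fisher's test and with the upper 50% by score 0.378. ZNF844, called in 8 and 0 libraries under both settings, was then the 1 member past Fisher's exact test toward 786-O, with adjusted p of 0.0231 and 0.0427.

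ZNF471 showed another pattern. It held 2 to 5 peaks in every 786-O library and 4 and 4 in RPTEC WT, but 0 in all 6 other RPTEC libraries, SETD2KO-1R included (adjusted Fisher's exact p between cell types 0.261). ZNF667, of the same cluster, held 2 and 3 peaks in RPTEC WT and 0 in the other 6, against 0 to 6 in 786-O (adjusted exact p = 0.814). For both genes the rescued clone had the values of the knockouts and not of WT. ZNF540, called in 8 and 2 libraries of 786-O and RPTEC, and ZNF792 and ZNF677, called in 0 and 6, each had an adjusted Fisher's exact p of 0.261. The p for ZNF844 and ZNF234 was 0.612 and that for ZNF491 and ZNF726 0.814. The other members ranked by this test, ZNF90, ZNF525, ZNF574, ZNF558, ZNF665, ZNF880, ZNF568 and ZNF730, were all at 1.00.

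**Figure D3:**
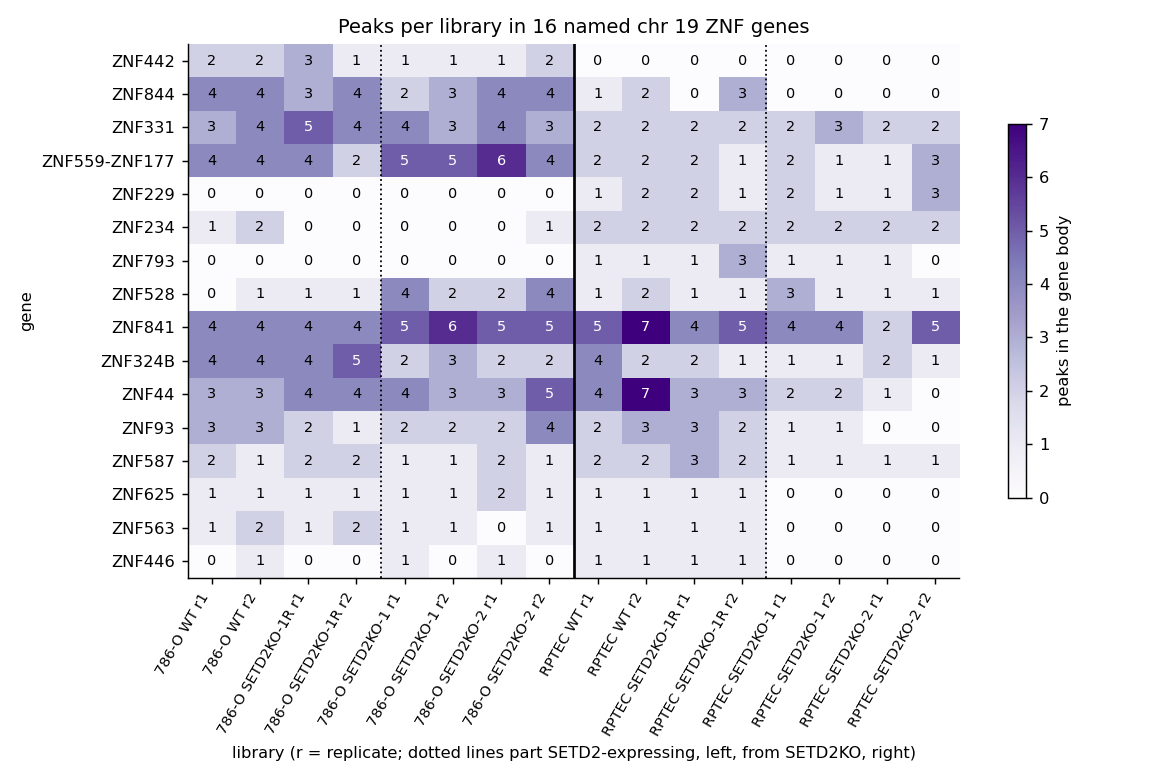
Number of peaks in each of the 16 libraries (columns, by cell type and line) for 16 named members (rows), with darker cells for more peaks. ZNF442 has peaks only in the 786-O columns and ZNF229 only in the RPTEC columns, and ZNF625, ZNF563 and ZNF446 are at 0 in the 4 SETD2KO columns of RPTEC.

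The main question of the study is how m6A calls differ with SETD2 status. In RPTEC, fewer members were called in SETD2KO than in SETD2-expressing libraries. The share of members called was 82.0 and 85.2% in WT, 78.4 and 73.6% in SETD2KO-1, 70.0 and 67.6% in SETD2KO-2, and 79.6 and 80.8% in SETD2KO-1R. Every SETD2KO library lay below every SETD2-expressing one, with means of 72.4% ± 4.70 and 81.9% ± 2.41 (SD, n = 4 libraries each), and SETD2KO-1R lay between WT and its SETD2KO-1 parent. The difference in means was -9.50 points.

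In 786-O the shares overlapped. They were 78.0 and 78.8% in WT, 76.8 and 78.4% in SETD2KO-1, 76.8 and 80.4% in SETD2KO-2, and 84.0 and 82.0% in SETD2KO-1R, with means of 78.1% ± 1.71 in SETD2KO and 80.7% ± 2.80 in SETD2-expressing libraries (SD, n = 4 each). The rescued clone had the highest values in this cell type.

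**Figure D4:**
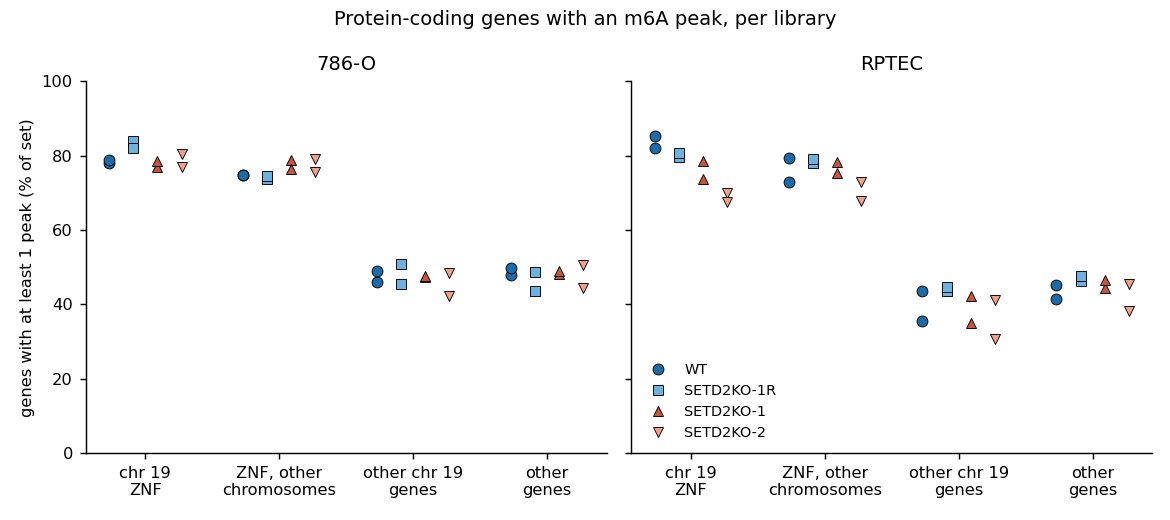
Percent of genes with at least 1 peak (y axis) for members and 3 other gene sets (x axis) in 786-O and RPTEC, with 1 point a library and colour and shape for the line. Among the RPTEC members the 4 SETD2KO libraries, from 67.6 to 78.4%, lie below the 4 SETD2-expressing ones, from 79.6 to 85.2%, and in 786-O the sides overlap.

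The other gene sets also had lower means in SETD2KO of RPTEC, by fewer percentage points, and their sides overlapped. ZNF genes of other chromosomes were called at 73.6% ± 4.43 in SETD2KO and 77.3% ± 2.94 in SETD2-expressing libraries of RPTEC, other chromosome 19 genes at 37.3% ± 5.44 and 41.8% ± 4.22, and the remaining genes at 43.7% ± 3.70 and 45.1% ± 2.63 (SD, n = 4 libraries each). In 786-O the ZNF genes of other chromosomes ran the other way, from 75.7 to 79.0% in SETD2KO and from 73.8 to 74.9% in SETD2-expressing libraries, without overlap. Whether the members differed from these sets was not tested, since the members were chosen with earlier results known.

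Peak numbers followed the calls. RPTEC members held 1.94 and 1.84 peaks on average in WT, 1.65 and 1.62 in SETD2KO-1, 1.46 and 1.22 in SETD2KO-2, and 1.84 and 1.83 in SETD2KO-1R, a mean of 1.49 ± 0.199 against 1.86 ± 0.0501 (SD, n = 4 libraries each) with no overlap. In 786-O the means were 1.93 and 1.95. In RPTEC the other chromosome 19 genes held 0.989 peaks per gene in SETD2KO and 1.27 in SETD2-expressing libraries, ZNF genes of other chromosomes 1.82 and 2.11 and the remaining genes 1.16 and 1.29, each with overlap. Set against their level, the other chromosome 19 genes thus differed about as much as the members. By gene, 135 of the 250 members (54.0%) had fewer peaks in RPTEC SETD2KO and 53 (21.2%) more, against 32.6% and 18.5% of all protein-coding genes. Numbers were equal for 62 members and for 9796 of the 20037 genes. Genes never called, 6.40% of members and 33.0% of all, cannot differ, which lowers both shares over all genes. ZNF genes of other chromosomes had 52.8% fewer and 22.1% more, and other chromosome 19 genes 34.8% and 12.2%. In 786-O, 102 members (40.8%) had fewer and 90 (36.0%) more, against 24.9% and 27.9% of all genes. There the ZNF genes of other chromosomes had 33.3% fewer and 37.5% more, and other chromosome 19 genes 29.9% and 22.7%. The members thus leaned to fewer, as their chromosome 19 neighbours did, and the ZNF genes elsewhere and all genes to more.

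List length moved with this result, and its part was not tested beyond the following values. RPTEC SETD2KO lists averaged 25184 peaks and SETD2-expressing lists 27681. With the 19249 highest peaks of every list, the RPTEC difference was -7.30 points in the share of members and -0.170 in peaks per member, but the sides then overlapped. In 786-O the same setting gave -8.10 points, with overlap, in place of -2.60, a value close to that of RPTEC. The RPTEC separation was also lost with the upper 50% of each list by score, at -9.90 points, and with peaks that lie in a single protein-coding gene, at -8.50 points. Against the SETD2-expressing libraries the share differed by -5.90 points for SETD2KO-1 alone and -13.1 for SETD2KO-2 alone, and the sides did not overlap for either clone.

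Score ranks overlapped between the sides in both cell types. The median member peak was at percentile 48.0 and 47.9 in RPTEC WT, 48.5 and 39.9 in SETD2KO-1, 37.7 and 44.2 in SETD2KO-2, and 43.7 and 44.4 in SETD2KO-1R, with means of 42.6 ± 4.83 and 46.0 ± 2.27 (SD, n = 4 libraries each). In 786-O the means were 46.7 ± 1.56 and 48.9 ± 2.14. The RPTEC difference turned its sign when every list was given the same number of peaks.

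Within 1 cell type no gene can pass Fisher's test of SETD2 status, since 4 libraries against 4 give at best an exact two-sided p of 0.0286 and an adjusted p of 1.00 over all genes. Without adjustment, 3 members and 111 of all genes reached that p in RPTEC, and 0 members and 88 genes in 786-O. The 3 were ZNF625, ZNF563 and ZNF446, with calls in every SETD2-expressing RPTEC library and in no knockout library of it. They are 1.20% of members, against 0.240% of all protein-coding genes. The reverse, calls in all SETD2KO and no SETD2-expressing library of RPTEC, was found for 0 members and 0.314% of all genes. In 786-O both counts were 0 for members, against 0.265% of all genes called in SETD2KO alone and 0.175% in SETD2-expressing libraries alone.

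ZNF625 and ZNF563 are near neighbours in the 11.5 to 12.6 Mb group. Each held 1 peak in the 4 SETD2-expressing RPTEC libraries and 0 in the 4 SETD2KO ones. In 786-O ZNF625 held 1 peak in all libraries but SETD2KO-2 replicate 1, which had 2, and ZNF563 held 1 or 2 in all but SETD2KO-2 replicate 1, which had 0. The ZNF625 region called in 12 libraries, chr19:12145309-12146444, lay 986 bp from the 3′ end at a median score percentile of 61.8. The ZNF563 region, chr19:12318692-12319651, was called in 11 libraries at 1694 bp from the 3′ end and percentile 48.0. In 786-O the ZNF625 region was called in all 8 libraries, and the ZNF563 region in 4 SETD2-expressing and 3 SETD2KO ones. The mean peak number of ZNF563 in 786-O was 0.750 in SETD2KO libraries and differed from that of SETD2-expressing ones by -0.750, with overlap.

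ZNF446, near the end of the chromosome, held 1 peak in each of the 4 SETD2-expressing RPTEC libraries and 0 in the SETD2KO ones. Its 786-O libraries had 1 peak in WT replicate 2, SETD2KO-1 replicate 1 and SETD2KO-2 replicate 1 and 0 elsewhere. Of its 2 regions, chr19:58479048-58479489 was called in 3 of the RPTEC SETD2-expressing libraries and no other, and chr19:58480055-58481152 in the remaining 1 and the 3 libraries of 786-O. With the same number of peaks from each list, 1 member in place of 3 had this pattern.

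Over both cell types together, with libraries exchanged only within a cell type, no gene passed either test. By the exact permutation test of peak number, 0 members and 0% of all genes had an adjusted p under 0.05 for fewer peaks in SETD2KO, and 0 members and 0% for more, and the exact test of calls gave 0 members and 0% in each direction as well. Without adjustment, 9 members (3.60%) had fewer peaks and 2 (0.800%) more at an exact permutation p under 0.05, against 1.83% and 1.75% of all genes, and by calls 4 (1.60%) and 0, against 0.489% and 0.644%. The members with the lowest exact permutation p were ZNF563, with 0.375 ± 0.518 peaks in SETD2KO and 1.25 ± 0.463 in SETD2-expressing libraries (SD, n = 8 each, p = 0.00408, adjusted p = 0.844), and ZNF324B, with 1.75 ± 0.707 and 3.25 ± 1.39 (p = 0.00653, adjusted p = 0.844).

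Peak numbers were lower in every SETD2KO library than in any SETD2-expressing library of RPTEC for 6 members (2.40%, against 0.858% of all genes), namely these 3 with ZNF44, ZNF93 and ZNF587. None was higher in every SETD2KO library, against 0.614% of all genes. ZNF44 held 4 and 7 peaks in RPTEC WT, 2 and 2 in SETD2KO-1, 1 and 0 in SETD2KO-2, and 3 and 3 in SETD2KO-1R, and 3 to 5 in 786-O. For ZNF93, known for silencing LINE-1 elements, the RPTEC counts were 2 and 3 in WT, 1 and 1 in SETD2KO-1, 0 and 0 in SETD2KO-2, and 3 and 2 in SETD2KO-1R. In both genes the rescued clone exceeded its parent and SETD2KO-2 was lowest. The main ZNF93 region, chr19:19932970-19934382, was called in all 8 libraries of 786-O, in all 4 SETD2-expressing libraries of RPTEC and in 1 of 4 SETD2KO ones. ZNF587, which with its paralog is known to bind endogenous retroviruses, kept 1 peak in each RPTEC SETD2KO library and held 2 or 3 in the SETD2-expressing ones, and its region chr19:57858309-57860113 was called in all 16 libraries.

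In 786-O, 2 members were higher in every SETD2KO library (0.800%, against 0.943% of all genes) and 1 was lower (0.400%, against 0.559%), both near the background. ZNF528 held 0 and 1 peaks in WT, 4 and 2 in SETD2KO-1, 2 and 4 in SETD2KO-2, and 1 and 1 in SETD2KO-1R, and ZNF841 5 or 6 in SETD2KO against 4 in each SETD2-expressing library. In RPTEC the means for ZNF841 went the other way, 3.75 in SETD2KO and 5.25 in SETD2-expressing libraries, with overlap. The lower member, ZNF324B, held 4 and 4 in WT, 2 and 3 in SETD2KO-1, 2 and 2 in SETD2KO-2, and 4 and 5 in SETD2KO-1R. Part of its body is shared with ZNF132.

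Members lie in groups along the chromosome, and 236 of them fell in 10 clusters of at least 5 members with no gap over 500 kb. SETD2KO had the lower mean number of peaks per member in 9 of the 10 clusters in RPTEC and in 5 in 786-O. The cluster at 57.2 to 58.5 Mb, from ZNF264 to ZNF446 with 43 members, had no overlap in peaks per member between the sides in either cell type. It was picked out of the 10 after its values were seen. In 786-O its members held 1.88 and 1.81 peaks in WT, 1.28 and 1.53 in SETD2KO-1, 1.37 and 1.47 in SETD2KO-2, and 1.70 and 1.93 in SETD2KO-1R. In RPTEC the values were 1.98 and 1.79, 1.12 and 1.12, 1.19 and 0.837, and 1.70 and 1.65 in the same order. The rescued clone stood with WT in 786-O. In RPTEC both its libraries lay between WT and its SETD2KO-1 parent, nearer to WT.

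Of the 43 members of this cluster, 28 had fewer and 7 more peaks in SETD2KO of 786-O, and 33 had fewer and 7 more in RPTEC. In both cell types 22 (51.2%) had fewer and 0 had more, against 23.6% and 7.60% of all members and 12.9% and 8.01% of all protein-coding genes. ZNF genes of other chromosomes stood at 21.3% and 8.99%, and other chromosome 19 genes at 16.3% and 4.58%. The shares over all genes include the 33.0% never called, which cannot differ. The share of these members called was 72.1% ± 4.25 in SETD2KO and 83.7% ± 3.29 in SETD2-expressing libraries of 786-O, without overlap, and 68.6% ± 7.23 and 82.6% ± 4.45 in RPTEC (SD, n = 4 libraries each), where the sides met at 76.7%. The 13 other protein-coding genes inside it were called at 19.2% and 23.1% in 786-O, with overlap, and at 15.4% and 30.8% in RPTEC, where no SETD2KO library exceeded 15.4% and no SETD2-expressing one was below 23.1%. In RPTEC the lower calls in SETD2KO were thus not limited to the ZNF genes of this stretch. Given the same number of peaks per list, the difference in peaks per member was -0.337 in 786-O, where the sides then overlapped, and -0.488 in RPTEC, where they did not. With the upper 50% of each list by score it was -0.174, again with overlap, and -0.262, without.

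**Figure D5:**
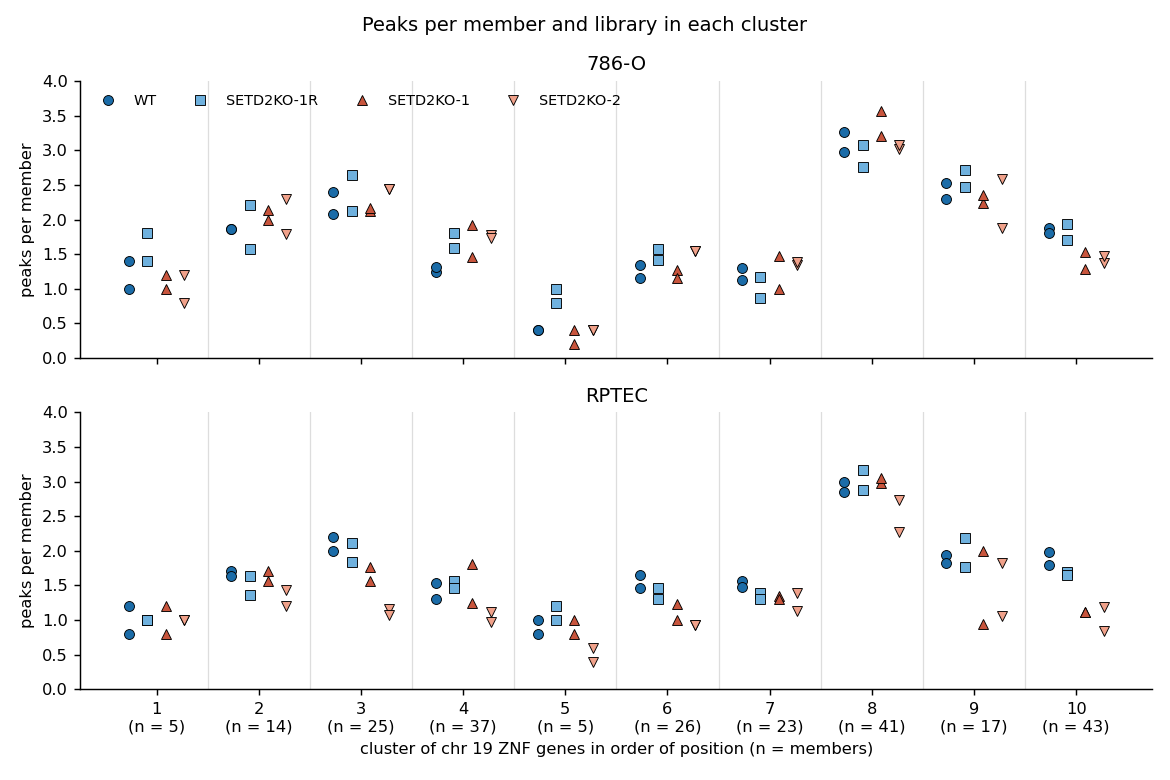
Mean number of peaks per member (y axis) in the 10 clusters of chromosome 19 ZNF genes in order of position (x axis), with 1 point a library and colour and shape for the line. In cluster 10, at 57.2 to 58.5 Mb, the SETD2KO points lie below the SETD2-expressing ones in both cell types, with differences in means of -0.419 in 786-O and -0.715 in RPTEC.

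The cluster at 11.5 to 12.6 Mb, with ZNF625, ZNF44 and ZNF563 among its 25 members, was lower in SETD2KO of RPTEC. Its share called was 80.0 and 88.0% in WT, 68.0 and 68.0% in SETD2KO-1, 56.0 and 56.0% in SETD2KO-2, and 76.0 and 84.0% in SETD2KO-1R, without overlap. With the same number of peaks per list this difference of -20.0 points was -17.0, and with the upper 50% by score -22.0, and the sides overlapped in both. In 786-O the means were 92.0% and 94.0%. The clusters at 55.5 to 56.7 Mb and at 36.2 to 37.8 Mb were also lower in RPTEC SETD2KO, the first without overlap in the share called (64.7 to 70.6% against 76.5 to 88.2%) and the second without overlap in peaks per member, with means of 1.02 and 1.47. These separations were also lost with the same number of peaks per list, at -11.8 in place of -13.2 points for the first and -0.173 in place of -0.452 peaks per member for the second, and with the upper 50%, at -16.2 points and -0.0962. Other separations arose only under a changed setting. With the upper 50%, the second's share called in RPTEC differed by -12.5 points without overlap, against -16.3 with overlap for all peaks. With the same number of peaks per list, the first's share in 786-O differed by -13.2 points without overlap, against -4.41 with overlap. The cluster at 51.6 to 53.6 Mb, with ZNF83, ZNF611 and ZNF841, differed little. It was called at 92.1% and 93.3% in RPTEC and, with SETD2KO the higher, at 92.7% and 87.8% in 786-O.

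The co-repressor genes through which KRAB zinc finger proteins act were called widely and passed no test between the cell types. Of 15 such genes, 10 were called in all 16 libraries, where 23.1% of all protein-coding genes were, among them TRIM28, SETDB1 and ATRX, and the least called was CBX3, which encodes a heterochromatin protein that binds H3K9me3, in 6 libraries. By the exact permutation test 0 of the 15 passed, against 1.96% of all genes toward 786-O and 1.19% toward RPTEC, 1 had an unadjusted p under 0.05, and the lowest adjusted p was 0.128, for MORC2, which silences repeats with the HUSH complex. By Fisher's exact test of calls 0 passed and 0 had an unadjusted p under 0.05, but the 10 genes called in every library cannot differ in this test. With SETD2KO, 6 had fewer peaks, 6 more and 3 the same number in 786-O, and the counts were 6, 6 and 3 in RPTEC as well. No co-repressor gene had peak numbers that separated the sides in either cell type, against 0.943% of all genes higher and 0.559% lower in 786-O and 0.614% and 0.858% in RPTEC.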

How the data were processed

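Members and gene lists were chosen with earlier results of these data known. MeRIP-seq IP libraries were assigned to lines by their titles alone, and some lists carry a further line name that the labels do not explain, on which no assignment was based. Per the labels, STAR, HTSeq and MACS2 were used on hg38. The authors called peaks of IP over Input for each library after spike-in scaling, and deposited for each peak a whole-number score whose scale is not stated. The score was used only as a percentile rank within its list. The handling of reads that map to several places is not given in the sources used here.

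Peaks were assigned to protein-coding gene bodies of the RefSeq table of GRCh38.p14. Between cell types, calls were compared by Fisher's exact test and peak numbers by an exact permutation test over all 12870 choices of 8 from 16 libraries, both two-sided, with Benjamini-Hochberg adjustment over 20037 genes. By SETD2 status, members were described, and a test over both cell types with libraries exchanged within each was added after seeing the data. Named members were up to 10 per direction with the lowest Fisher's p, up to 5 per direction separated by SETD2 status in a cell type, the 10 with the most peaks and the 5 with the highest scores among those called in all 16 libraries, and those never called. Others, among them ZNF331 and ZNF559-ZNF177, were named after their values were seen. Alternatives changed the overlap rule, peak threshold, list length, genes, units and libraries. Protein features were not run. Scripts were tested on simulated data and ran under Python 3.11.15 with SciPy 1.17.1, NumPy 2.4.6, pandas 2.3.3 and Matplotlib 3.10.9.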

Additional observations from a re-analysis of the deposited data

Results flagged for a closer look

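Library measures were examined in 42 groups of 4 or 8 libraries for a single library far from the rest, a rule by which chance alone marks about 1 group in 20, and 2 were marked. Among the 4 SETD2-expressing libraries of RPTEC, WT replicate 1 had 1.94 peaks per member against 1.83 to 1.84 in the other 3. In the same group, the median length of its member peaks was 499 bp against 469 to 472 bp.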

How the results depend on the processing

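The lists hold no counts, so depth limits every absence of a call by an unknown amount, and libraries of 1 clone are not independent lines. Members more often called in 786-O (1) and in RPTEC (1) fell to 0 each with lines as units, where the smallest exact p is 0.0286, and with the replicate block. The first was also 0 over members that overlap no other gene, and the second with equal lists and with the upper 50% of scores, where the first was 1 through ZNF844 in place of ZNF442. With the block ZNF442 and ZNF229 had an adjusted exact p of 0.0545. The count with more peaks in 786-O (4) was 8 among genes called in at least 4 libraries, 2 over members without overlap, with peaks of a single gene and with the replicate block, 1 with equal lists or the upper 50%, and 0 with lines as units. The count with more peaks in RPTEC (3) was 1 with peaks of a single gene, the replicate block or equal lists, and 0 with the upper 50% or lines as units. Calls in SETD2-expressing RPTEC libraries alone (3) numbered 5 against SETD2KO-1, 14 against SETD2KO-2, 8 with WT alone, and 1 with equal lists or the upper 50%, and the reverse (0) was 1 with WT alone. In 786-O, SETD2-expressing calls alone (0) numbered 2 against SETD2KO-1 and 1 with WT alone, equal lists or the upper 50%, and the reverse (0) was 3 with WT alone. The share of members called in 786-O differed by -8.10 points with equal lists and -6.40 with the upper 50%. The score percentile differed by -0.0321 with the upper 50% in 786-O, and in RPTEC by 2.46 with equal lists and 3.50 with the upper 50%, against -3.44 with all peaks. The causes were not tested. The test over both cell types, limited by its lowest possible p and added after seeing the data, gave 0 members in each direction with all peaks, equal lists and the upper 50%.

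With 1 library left out, the share of members differed by -3.50 to -1.50 points in 786-O and -11.5 to -7.90 in RPTEC, and the score percentile by -2.87 to -1.29 and -5.43 to -1.80. Calls in SETD2-expressing libraries alone ranged from 0 to 1 in 786-O and from 3 to 7 in RPTEC, with 7 without SETD2KO-1 replicate 1 and 5 without SETD2KO-1R replicate 1. The reverse stayed at 0 to 0 in both. Members more often called numbered 1 to 1 in 786-O and 1 to 2 in RPTEC, with 2 without RPTEC SETD2KO-2 replicate 2. More peaks were counted for 1 to 5 members in 786-O and 1 to 4 in RPTEC, and both counts were 1 without RPTEC SETD2KO-1 replicate 1, SETD2KO-2 replicate 1 or SETD2KO-1R replicate 1. The first was 2 without 786-O WT replicate 1 or 2, 786-O SETD2KO-2 replicate 1, RPTEC WT replicate 1 or RPTEC SETD2KO-2 replicate 2. In 786-O, the 1 member called in SETD2-expressing libraries alone arose without SETD2KO-2 replicate 1 or 2 or SETD2KO-1R replicate 2. Differences of replicate 1 and 2 correlated between lines by -0.435 to 0.400 over 28 pairs, with a median of -0.0106. Replicate numbers thus showed no common direction across lines, but a batch shared by some lines is not excluded. For SETD2 status the block gives the same differences by construction.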
